A study of Mus musculus with 6 samples.

Results

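The core circadian clock genes described here are 10 genes, *Clock*, *Arntl*, *Per1*, *Per2*, *Per3*, *Cry1*, *Cry2*, *Nr1d1*, *Nr1d2* and *Dbp*. They were chosen by name, as the loci of the deposited expression table that carry these symbols, and make up 10 of its 24469 loci, each found at 1 locus. The table comes from RNA-Seq of MPCs, an immortalized mouse podocyte line. Podocytes are epithelial cells that cover the filtering capillaries of the glomerulus. The cells had been grown at 5.5 mM glucose with interferon gamma, which keeps the line dividing, and differentiated without it for 10 days. There were 6 libraries in 3 groups of 2. All groups were starved of serum for 12 h and then kept in high glucose (HG, 25 mM) for 12 h. No pretreatment is described for the HG group. The rFGF1WT group was pretreated for 1 h with 100 ng/mL of recombinant wild-type FGF1, a growth factor that acts through FGF receptors with heparan sulfate as a cofactor. The rFGF1ΔHBS group was pretreated in the same way with a mutant whose heparan sulfate binding site is altered. The comparisons ask how the 2 proteins moved gene expression under HG, and whether the mutant differed from the wild type.

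The mammalian clock is a loop of transcription that runs in most cells, kidney cells included. *Clock* and *Arntl* (also called *Bmal1*) encode the activators, which pair and bind E-boxes in the promoters of the Period and Cryptochrome genes, and the PER and CRY proteins then return to the nucleus and repress the pair. *Nr1d1* and *Nr1d2* encode REV-ERBα and REV-ERBβ, which repress *Arntl*, and *Dbp* is a direct E-box target whose product binds D-boxes in other clock genes. Serum and growth factors can set the phase of this loop in cultured cells. All libraries were harvested at a single time after treatment, so their values are levels at that time and hold neither the phase nor the amplitude of a rhythm.

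Promoter stretches are shown first for the 6 members that hold a match to one of the clock's own binding motifs. The results of the members are ordered by the role of the encoded protein, not by these motifs. The windows are those of RefSeq on GRCm38.p6, from 250 bases before to 50 bases after each transcription start. They cover 9 of the 10 members in 13 windows. *Per2* has no entry. Both strands were searched for the E-box CACGTG, the E'-box CACGTT, the D-box TTATGTAA or TTACGTAA, the RRE (the REV-ERB response element) TAGGTCA or TGGGTCA, and the CRE TGACGTCA. Each stretch is written 5' to 3' on the gene's own strand, with the match in capitals. An E'-box on the other strand reads AACGTG.
*Per1*, chr11:69098753-69098818, plus strand, E-box: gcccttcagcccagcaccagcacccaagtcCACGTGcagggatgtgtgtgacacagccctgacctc
*Per3*, chr4:151044786-151044900, minus strand, 2 D-boxes: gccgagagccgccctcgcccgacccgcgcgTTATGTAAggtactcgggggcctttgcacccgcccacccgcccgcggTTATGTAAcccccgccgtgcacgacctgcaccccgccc
*Cry1*, chr10:85185079-85185163, minus strand, E'-box and E-box: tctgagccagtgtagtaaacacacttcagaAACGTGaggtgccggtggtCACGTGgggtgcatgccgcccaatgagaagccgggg
*Cry2*, chr2:92434200-92434265, minus strand, E'-box: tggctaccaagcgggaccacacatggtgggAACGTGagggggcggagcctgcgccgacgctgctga
*Nr1d1*, chr11:98775378-98775435, minus strand, E'-box: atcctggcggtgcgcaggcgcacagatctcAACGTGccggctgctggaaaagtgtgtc
*Arntl*, chr7:113207530-113207559, plus strand, RRE: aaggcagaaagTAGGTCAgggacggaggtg

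The E-box of *Per1* begins 166 bases before a transcription start at chr11:69098949. That start lies inside the gene, whose plus-strand span begins at chr11:69095217, so the printed stretch is not at the gene's 5' end. In *Cry1* the E'-box begins 79 bases and the E-box 60 bases before the start. The D-boxes of *Per3* begin 205 and 158 bases before the start, the E'-boxes of *Cry2* and *Nr1d1* 166 and 28 bases before it, and the RRE of *Arntl* 31 bases after it. No match overlapped another. Among all 32851 promoter windows of the same length, an E-box was present in 7.15%, an E'-box in 4.685%, a D-box in 1.056%, an RRE in 6.453% and a CRE, which no member held, in 1.79%. The windows of *Clock*, *Nr1d2* and *Dbp* held none of these letters. A match describes the sequence only, and binding was not measured.

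Expression is given as FPKM, the fragments assigned to a gene per kilobase of its transcripts and scaled to the mapped fragments of the library, as the authors deposited it. All 10 members had a mean FPKM of at least 1, the level above which loci were tested, and 10562 loci were tested in all. Their means were low to middling, from 1.69 for *Dbp*, with 8.47% of tested loci below it, to 8.73 for *Nr1d2*, with 53.2% below it. Differences between groups are on the scale of log2(FPKM + 1), which understates changes of genes as low as these, and they were tested with limma in one fit of the 6 libraries with Benjamini-Hochberg adjustment over all tested loci. A gene was called at an adjusted p under 0.05. Nothing in the labels says that the libraries of a group came from separate cultures, so p-values measure the spread between these libraries, which may be technical. The comparisons with HG share the HG libraries and are therefore not independent of each other.

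The libraries were close in scale, with a small offset between HG and FGF1 libraries. FPKM summed to between 179594 and 185168, and steps among low values placed depth at 0.9731 to 1.011 of that of the first HG library. The total number of reads is unknown. Median-ratio factors (the median ratio of a library to the geometric mean of all libraries) were 1.031 and 1.039 under HG and 0.990 to 1.008 with FGF1. Scaling by them moved the log2 differences of *Clock* and *Nr1d1* between rFGF1WT and HG from -0.05 and -0.06 to -0.009 and -0.021. The podocyte label was checked against 14 marker genes, of which 13 were in the table and 8 had a mean FPKM of at least 1. The defining podocyte transcription factor gene *Wt1* was nearly absent, at 0.010 to 0.073 FPKM. The summed podocyte list was 228 to 232 FPKM under HG, 316 to 321 with rFGF1WT and 301 to 314 with rFGF1ΔHBS. Endothelial markers summed to at most 0.167 FPKM. Of the 5 leukocyte markers 1 had a mean of 1 or more, *Cd68*, and the list summed to 50.3 to 53.3 FPKM under HG, 63.2 to 66.4 with rFGF1WT and 67.2 to 67.3 with rFGF1ΔHBS, while the defining *Ptprc* was at most 0.055 FPKM. The mesangial list held 3 of 6 markers at a mean of 1 or more (43.4 to 48.2 FPKM summed) and the tubular list 1 of 5, *Lrp2* (22.5 to 28.9 FPKM summed). The part of these markers in the clock genes' differences was not tested, and in bulk RNA fewer cells of a type and less RNA per cell cannot be told apart.

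**Figure D1:**
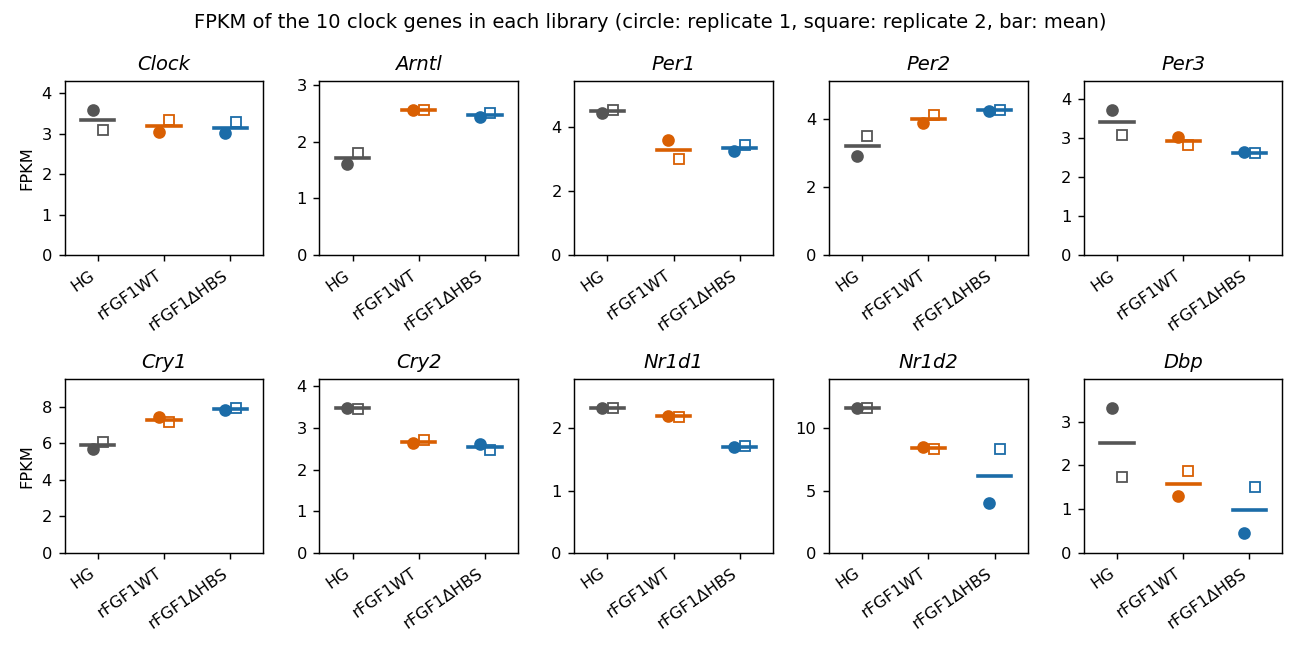
FPKM of each clock gene (y axis, from 0, scaled separately for each gene) in the HG, rFGF1WT and rFGF1ΔHBS groups, with a circle for replicate 1, a square for replicate 2 and a bar for the mean of the 2. *Arntl*, *Cry1* and *Per2* lay higher in all 4 FGF1 libraries than in both HG libraries, *Per1*, *Per3*, *Cry2*, *Nr1d1* and *Nr1d2* lay lower, and *Clock* and *Dbp* overlapped.

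The pattern across libraries was mixed in direction. In 3 members, *Per2*, *Cry1* and *Arntl*, all 4 libraries with either FGF1 protein lay above both HG libraries, and in 5, *Per1*, *Per3*, *Cry2*, *Nr1d1* and *Nr1d2*, all 4 lay below. Among all tested loci 42.6% were separated in this way, 17.1% upward and 25.5% downward. *Clock* and *Dbp* overlapped. Only 1 member was called in any comparison, *Cry1* with rFGF1ΔHBS, at a limma adjusted p of 0.0485, beside 6.26% of tested loci called in that comparison. No member was called with a 2-fold change, beside 1.01% of tested loci with rFGF1WT, 0.899% with rFGF1ΔHBS and 0.35% between the proteins.

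Of the activators, *Arntl* was higher with FGF1 and *Clock* was level. *Arntl* (GRCm38 chr7:113207465-113314126, plus strand) is the partner whose own transcription the loop regulates. It had 1.61 and 1.79 FPKM under HG, 2.55 and 2.55 with rFGF1WT, and 2.43 and 2.49 with rFGF1ΔHBS. All 4 FGF1 libraries lay well above the HG libraries, and the ratio of mean FPKM to HG was 1.501 and 1.45. On the log2(FPKM + 1) scale the differences were 0.40 (standard error 0.08) and 0.36, with limma adjusted p of 0.0663 and 0.0772, so neither passed the threshold. Over the alternative fits these adjusted p ran from 0.0516 to 0.185 for rFGF1WT and from 0.0643 to 0.208 for rFGF1ΔHBS.

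*Clock* (chr5:76209868-76304792, minus strand), which encodes the partner of the ARNTL protein, had 3.58 and 3.09 FPKM under HG, 3.03 and 3.33 with rFGF1WT, and 3.02 and 3.28 with rFGF1ΔHBS. The groups overlapped throughout. Its log2 differences from HG were -0.05 (95% interval -0.31 to 0.21) and -0.06 (-0.32 to 0.20), with limma adjusted p of 0.779 and 0.737.

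The Cryptochromes, the strong repressors of the activator pair, lay on opposite sides of HG. *Cry1* (chr10:85131700-85185064, minus strand), whose promoter stretch holds both box types, had 5.69 and 6.07 FPKM under HG, 7.42 and 7.15 with rFGF1WT, and 7.82 and 7.94 with rFGF1ΔHBS. The 3 groups did not overlap, with HG lowest and rFGF1ΔHBS highest, and means were 5.88 ± 0.273, 7.28 ± 0.195 and 7.88 ± 0.0820 FPKM (SD, n = 2 each). With rFGF1ΔHBS, *Cry1* rose by 0.37 on the log2(FPKM + 1) scale (standard error 0.06, 95% interval 0.20 to 0.53, limma adjusted p = 0.0485), higher in 2 of 2 libraries. With rFGF1WT the difference was 0.27 (0.10 to 0.43, limma adjusted p = 0.0895). The call rests close to the threshold and was lost in 10 of 15 alternative fits. Over 15 alternative fits the limma adjusted p for rFGF1ΔHBS ran from 0.0363 to 0.167, and the settings under which it was lost included no filter on low FPKM (0.0854), a fit of only the 4 libraries compared (0.0991), robust empirical Bayes (0.0526) and every fit without 1 library (0.0970 to 0.167).

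*Cry2* (chr2:92403646-92434043, minus strand) had 3.48 and 3.46 FPKM under HG, 2.63 and 2.71 with rFGF1WT, and 2.61 and 2.48 with rFGF1ΔHBS. Both FGF1 groups lay below HG without overlap, at 0.770 and 0.733 of its mean FPKM. The log2 differences were -0.28 and -0.33 (standard error 0.07 for each), with limma adjusted p of 0.0953 and 0.0682. A transcript on the opposite strand, *D930015M05Rik*, shares 295 of the 6320 exonic bases of *Cry2*.

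The Period genes encode the partners of the CRY proteins in the repressor complex, and they did not share a direction. *Per1* (chr11:69095217-69109960, plus strand), which responds quickly to serum and hormones in many cells, had 4.46 and 4.55 FPKM under HG, 3.60 and 2.997 with rFGF1WT, and 3.27 and 3.44 with rFGF1ΔHBS. All FGF1 libraries lay below HG, at 0.732 and 0.745 of its mean. The log2 differences were -0.36 and -0.34 (standard error 0.09), with limma adjusted p of 0.111 and 0.120.

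*Per2* (chr1:91415982-91459324, minus strand) ran the other way, with 2.92 and 3.50 FPKM under HG, 3.90 and 4.13 with rFGF1WT, and 4.25 and 4.27 with rFGF1ΔHBS. The groups did not overlap, and the ratios of mean FPKM to HG were 1.25 and 1.33. The log2 differences were 0.25 and 0.32 (standard error 0.09), with limma adjusted p of 0.194 and 0.129. Without the first HG library they were 0.15 and 0.22.

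*Per3* (chr4:151003652-151044665, minus strand), the Period gene least needed for rhythms in mice, had 3.72 and 3.09 FPKM under HG, 3.02 and 2.83 with rFGF1WT, and 2.64 and 2.61 with rFGF1ΔHBS. The second HG library lay only just above the first rFGF1WT library. The log2 differences were -0.16 and -0.28 (standard error 0.10), with limma adjusted p of 0.380 and 0.182. Without the first HG library they were -0.06 and -0.17, and without the second -0.27 and -0.38.

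The REV-ERB genes, repressors of *Arntl*, lay below HG. Their fitted values were lower with the mutant than with the wild-type protein, but neither difference was called. For *Nr1d2* that log2 difference was -0.47, and -0.01 without the first rFGF1ΔHBS library. *Nr1d1* (chr11:98767932-98775333, minus strand) had 2.33 and 2.33 FPKM under HG, 2.20 and 2.19 with rFGF1WT, and 1.70 and 1.71 with rFGF1ΔHBS. The pairs were tight and did not overlap, with rFGF1ΔHBS lowest at 0.731 of the HG mean. The log2 difference from HG was -0.06 (95% interval -0.25 to 0.13) with rFGF1WT and -0.30 (-0.49 to -0.11) with rFGF1ΔHBS, with limma adjusted p of 0.648 and 0.0899. Its exons overlap those of *Thra*, a thyroid hormone receptor gene on the opposite strand, over 263 of 3077 exonic bases, and the sources do not say whether counting used strand. *Thra* had 9.41 and 9.55 FPKM under HG, 6.83 and 6.13 with rFGF1WT, and 6.03 and 6.90 with rFGF1ΔHBS. It thus lay below HG with both proteins, while *Nr1d1* lay at 0.943 of the HG mean with rFGF1WT and at 0.731 with rFGF1ΔHBS. The part of *Thra* reads in the *Nr1d1* values was not tested.

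*Nr1d2* (chr14:18204054-18239127, minus strand) was the most abundant member under HG, at 11.6 and 11.7 FPKM. It had 8.49 and 8.35 FPKM with rFGF1WT, and 3.96 and 8.34 with rFGF1ΔHBS. All FGF1 libraries lay below HG, but the first rFGF1ΔHBS library stood far below the second, which was level with rFGF1WT. The log2 differences were -0.42 and -0.89 (standard error 0.31), with limma adjusted p of 0.467 and 0.183. Without the first rFGF1ΔHBS library the difference of rFGF1ΔHBS from HG was -0.44 (adjusted p = 0.0912), and without the second it was -1.35 (adjusted p = 0.0263, a call in that limma fit), so 1 library decides this value. The standard error of 0.31 is pooled over the groups and so includes the spread between the rFGF1ΔHBS libraries. In a limma fit of only the HG and rFGF1WT libraries the rFGF1WT difference was again -0.42. Its standard error was then 0.05 and its adjusted p 0.0645.

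*Dbp* (chr7:45705088-45710203, plus strand), the output gene, had 3.32 and 1.73 FPKM under HG, 1.30 and 1.87 with rFGF1WT, and 0.443 and 1.51 with rFGF1ΔHBS. Its HG replicates were further apart than those of the other 9 members. The rFGF1WT libraries overlapped HG and the rFGF1ΔHBS libraries lay below it. The log2 differences were -0.42 (95% interval -1.43 to 0.59) and -0.85 (-1.86 to 0.16), with limma adjusted p of 0.544 and 0.262. Without the first HG library they were -0.09 and -0.52, and without the first rFGF1ΔHBS library the difference of rFGF1ΔHBS from HG was -0.45. Of the exonic bases of *Dbp*, 539 of 2993 (18.01%) are shared with *Sphk2*, a sphingosine kinase gene on the opposite strand, which had 5.33 and 5.33 FPKM under HG, 5.09 and 4.68 with rFGF1WT, and 3.85 and 5.45 with rFGF1ΔHBS. The low value of *Sphk2* fell in the same library as the lowest value of *Dbp*. Between the HG libraries *Sphk2* was level, while *Dbp* differed. Reads of the shared bases cannot be told apart without strand, and the part of *Sphk2* reads in the *Dbp* values was not tested.

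**Figure D2:**
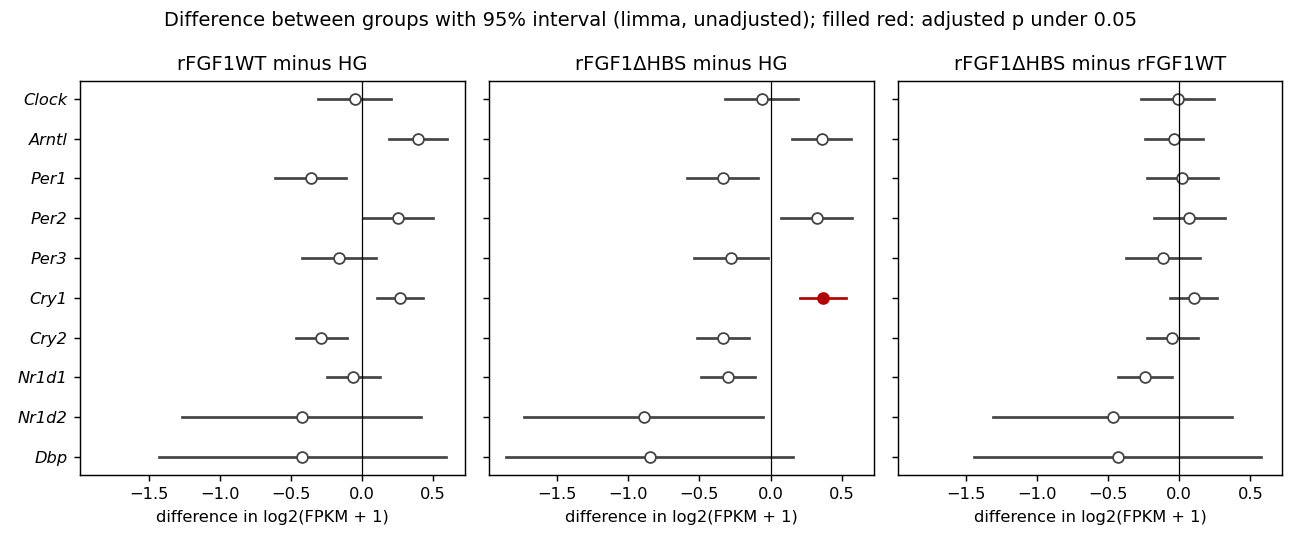
Difference in log2(FPKM + 1) (x axis) of each clock gene for rFGF1WT minus HG, rFGF1ΔHBS minus HG and rFGF1ΔHBS minus rFGF1WT, as a point with its unadjusted 95% interval from limma, filled red where the adjusted p was under 0.05. *Cry1* in the middle panel (0.37) is the only filled point, and the intervals of *Nr1d2* and *Dbp* are the widest.

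Against HG, rFGF1WT gave 3 higher and 7 lower members. None was called (0 of 10), with 5 at an unadjusted limma p under 0.05, beside 6.19% of all tested loci called and 24.8% at an unadjusted p under 0.05. The groups did not overlap in 8 members, beside 58.2% of tested loci. The median log2 difference over the members was -0.11, against -0.04 over all tested loci, and the median size without sign was 0.276 against 0.181. With rFGF1ΔHBS there were again 3 higher and 7 lower members, 1 called, and 8 at an unadjusted limma p under 0.05, beside 6.26% and 24.9% of tested loci. Groups did not overlap in 9 members, beside 57.3%. The median difference was -0.29 against -0.04, and the median size 0.336 against 0.179. The count of 654 loci called with rFGF1WT comprised 344 higher and 310 lower, and 410 and 235 after median-ratio scaling.

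The members were then compared between the mutant and the wild-type protein, which were given at matched dose and time. Neither limma nor any of its 15 alternatives called a member (0 of 10, beside 0.549% of tested loci), and 1 member, *Nr1d1*, had an unadjusted p under 0.05, beside 4.87% of tested loci. For *Nr1d1* the log2 difference of rFGF1ΔHBS from rFGF1WT was -0.24 (95% interval -0.43 to -0.05, limma adjusted p = 0.860), with both rFGF1ΔHBS libraries below both rFGF1WT libraries. Every interval of the members other than *Nr1d1* included 0, which does not show equal levels with the 2 proteins. The difference was 0.10 (-0.06 to 0.27) for *Cry1*, -0.05 (-0.23 to 0.13) for *Cry2*, -0.04 (-0.24 to 0.17) for *Arntl* and -0.01 (-0.27 to 0.25) for *Clock*. It was 0.02 (-0.23 to 0.27) for *Per1*, 0.07 (-0.18 to 0.32) for *Per2* and -0.11 (-0.37 to 0.15) for *Per3*. For *Nr1d2* and *Dbp* the intervals reached from -1.31 to 0.37 and from -1.44 to 0.57, so differences of more than 2-fold were within them. The groups did not overlap in 7 members, beside 34.5% of tested loci, but some of the gaps were small. The nearest rFGF1ΔHBS and rFGF1WT libraries had 8.341 and 8.346 FPKM for *Nr1d2*, 2.49 and 2.55 for *Arntl*, and 2.61 and 2.63 for *Cry2*. The median size of the difference was 0.0855 against 0.0845 over all tested loci.

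Because FPKM is per length, levels can be ordered across the members. Under HG, *Nr1d2* led, followed by *Cry1* and *Per1*, each without overlap with the next. *Cry2*, *Per3*, *Clock*, *Per2*, *Dbp* and *Nr1d1* followed, and each neighbour in that run overlapped the next. *Arntl* was lowest, its libraries below those of *Nr1d1*. With rFGF1WT the order began *Nr1d2*, *Cry1*, *Per2*, and with rFGF1ΔHBS *Cry1* had the highest mean, although its libraries overlapped the wide range of *Nr1d2*. *Dbp* was the lowest member in both FGF1 groups, at 1.58 ± 0.397 and 0.977 ± 0.755 FPKM (SD, n = 2 each).

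The loci most like *Cry1*, the member with the smallest adjusted p, were *Pidd1* (Pearson r of log2(FPKM + 1) 0.997 over 6 libraries), *Ltbp1* (0.997) and the merged locus *Gm36961;Ephx1* (0.996). These were picked as the highest among 10562 loci over 6 libraries that share the group structure, so the values are a description only.

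Beyond the 10 members, 70 genes around the clock were found in the table, from lists of auxiliary loop genes, modifiers of clock proteins, input genes and output genes and from the KEGG circadian rhythm pathway as the table's own pathway column gives it. Of these, 59 were tested. With rFGF1WT 3 were called, 2 higher and 1 lower (14 at an unadjusted p under 0.05), and with rFGF1ΔHBS 4, 3 higher and 1 lower (13 at an unadjusted p under 0.05). These counts correspond to 5.08% and 6.78% of those tested, near the 6.19% and 6.26% of all tested loci. Between the proteins 1 gene was called (1.69%, beside 0.549%).

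The auxiliary loop list, 8 of whose 13 genes were tested, held 1 called gene with each protein (12.5%, beside 6.19% and 6.26% of all tested loci). *Bhlhe40* (also called *Dec1*), a repressor that competes for E-boxes with the activator pair, had 12.0 and 10.9 FPKM under HG, 23.8 and 22.7 with rFGF1WT, and 21.7 and 21.8 with rFGF1ΔHBS. It rose by 0.96 (standard error 0.07, limma adjusted p = 0.0114) and 0.87 (limma adjusted p = 0.0140) on the log2(FPKM + 1) scale, and stayed called in 13 and 12 of 15 alternative fits. The other tested genes of the list were not called. Its paralog *Bhlhe41* had 5.60 and 4.96 FPKM under HG, 5.97 and 1.13 with rFGF1WT, and 5.13 and 5.54 with rFGF1ΔHBS, the single low library setting its difference of -0.70 (limma adjusted p = 0.514).

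Among modifiers, 21 of 23 were tested, with 1 called with rFGF1WT and 2 with rFGF1ΔHBS (4.76% and 9.52%, beside 6.19% and 6.26% of all tested loci). Both genes encode catalytic subunits of AMPK, a kinase that can mark CRY proteins for degradation. *Prkaa1* had 21.3 and 20.98 FPKM under HG, 9.02 and 10.7 with rFGF1WT, and 10.0 and 9.22 with rFGF1ΔHBS, and its log2 differences were -1.03 and -1.06 (limma adjusted p = 0.0172 and 0.0175). It stayed called in 8 and 10 of 15 alternative fits. *Prkaa2* had 1.24 and 1.25, then 1.07 and 1.42, then 4.58 and 4.06 FPKM, and rose with rFGF1ΔHBS by 1.24 (limma adjusted p = 0.0175), a call kept in 9 of 14 alternative fits. *Gsk3b*, a kinase that phosphorylates several clock proteins, had 25.3 and 25.4 FPKM under HG, 20.6 and 22.0 with rFGF1WT, and 5.73 and 22.8 with rFGF1ΔHBS, its low value in the same library as those of *Nr1d2* and *Dbp*. Its log2 difference of rFGF1ΔHBS from HG was -1.06, and it was -0.15 without that library and -1.97 (limma adjusted p = 0.01998) without the other. Without the AMPK subunits, 53 genes around the clock were tested, and 2 were called with each protein (3.77%, beside 6.19% and 6.26% of all tested loci).

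No input gene was called with either protein (0 of 15 tested, beside 6.19% and 6.26% of all tested loci). In each comparison with HG 1 was at an unadjusted limma p under 0.05, beside 24.8% and 24.9% of all tested loci. The list covers signals to the clock through CREB, glucocorticoid receptor and serum response factor, and includes a target of such a signal. *Tsc22d3*, a glucocorticoid target also in the output list, had 10.0 and 9.83 FPKM under HG, 1.78 and 5.88 with rFGF1WT, and 6.75 and 6.98 with rFGF1ΔHBS. All its FGF1 libraries lay below HG, with limma adjusted p of 0.173 and 0.563. Its rFGF1WT libraries stood apart, and the difference of -1.32 from HG was -0.67 (limma adjusted p = 0.0654) without the first of them and -1.98 (limma adjusted p = 0.0136) without the second. *Nr3c1*, the glucocorticoid receptor gene, had 22.1 and 19.1, 20.1 and 17.3, and 8.78 and 19.5 FPKM in the same order, the low value again in the first rFGF1ΔHBS library. The merged locus *Elk1;Uxt* had 4.13 and 7.47, 6.78 and 6.32, and 4.21 and 4.02 FPKM.

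Of the 17 output symbols 15 were in the table and 12 tested, with 1 called with each protein (8.33%, beside 6.19% and 6.26% of all tested loci). *Tspan4*, a tetraspanin gene, had 35.4 and 36.7 FPKM under HG, 67.1 and 59.8 with rFGF1WT, and 58.2 and 51.7 with rFGF1ΔHBS, and rose by 0.80 and 0.59 (limma adjusted p = 0.0234 and 0.0406). It stayed called in 7 and 6 of 15 alternative fits. *Cdkn1a*, which encodes the cell cycle inhibitor p21, had 31.2 and 10.2, 20.0 and 20.9, and 58.3 and 22.8 FPKM in the order of the groups, with limma adjusted p of 0.904 and 0.441. In the KEGG pathway, 22 of 30 loci were not members, and 26 were tested, members included. Of these, 2 were called with rFGF1WT, 4 with rFGF1ΔHBS and 1 between the proteins (7.69%, 15.4% and 3.85%, beside 6.19%, 6.26% and 0.549% of all tested loci). The called genes were *Bhlhe40*, *Prkaa1*, *Prkaa2* and *Cry1*, each already counted above.

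**Figure D3:**
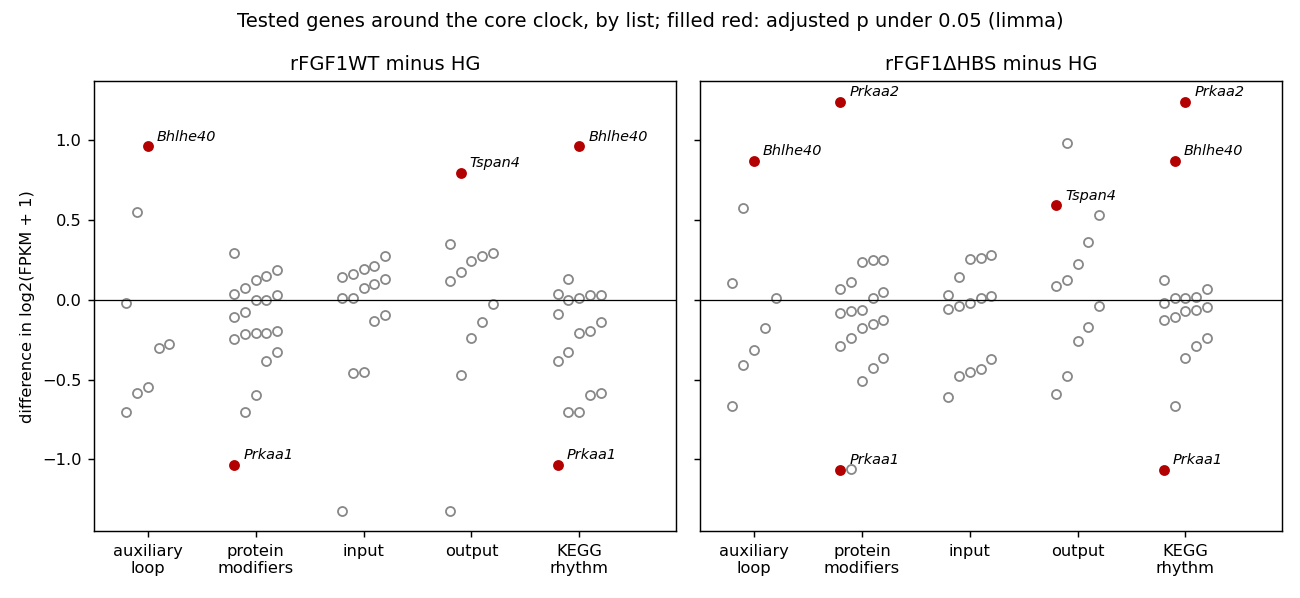
Difference in log2(FPKM + 1) from HG (y axis) of the tested genes around the clock, without the 10 members, by list (x axis), for rFGF1WT and rFGF1ΔHBS, filled red and named where the limma adjusted p was under 0.05. A gene in 2 lists appears in both, and *Bhlhe40*, *Tspan4*, *Prkaa1* and, with rFGF1ΔHBS, *Prkaa2* are the only filled points.

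**Figure D4:**
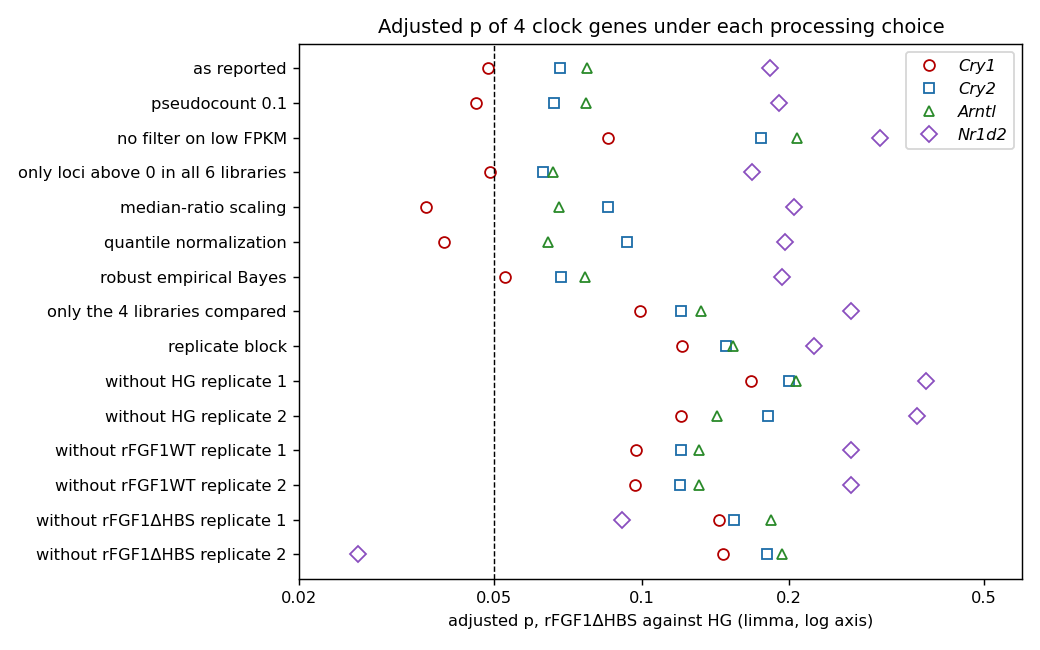
Limma adjusted p for rFGF1ΔHBS against HG (x axis, log scale, dashed line at 0.05) of *Cry1*, *Cry2*, *Arntl* and *Nr1d2* in the reported fit and in 14 alternatives (y axis). *Cry1* is left of the line as reported (0.0485) and right of it whenever 1 library was left out, and *Nr1d2* crosses it only without the second rFGF1ΔHBS library (0.0263).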

How the data were processed

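RNA-Seq of MPCs covered 6 libraries, grouped by the labels' treatment into HG, rFGF1WT and rFGF1ΔHBS (2 each). The authors sequenced poly(A) RNA and deposited 1 table of FPKM per locus, normalized to transcript length and mapped fragments. The submitters' processing notes name Bowtie 0.12.2, HISAT2 2.0, StringTie 1.3.0 and the build mm8, with no role or order. Strand use is not given in the sources used here. The deposited table has no coordinates, so positions came from GENCODE M21 (GRCm38) through each locus's Ensembl transcripts, all of which belonged to the named member. Depth is unknown from FPKM.

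From the deposited FPKM, log2(FPKM + 1) of 10562 loci (mean FPKM of 1 or more) was fitted with limma 3.58.1 (R 4.3.3; lmFit, contrasts, eBayes with a trend) in 1 fit of all libraries with 3 residual degrees of freedom. Calls used a Benjamini-Hochberg adjusted p under 0.05, and separately also 2-fold. An exact permutation test of 2 against 2 cannot go below 0.333 and was not used. The fit was tested on simulated data. Sequences and motif shares are from RefSeq promoter windows (GRCm38.p6). Tables used pandas 2.3.3 in Python 3.11.15, and plots matplotlib 3.10.9.

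Members and gene lists were chosen with earlier results of these data known. Named were all members, listed genes called in any comparison and, for lists with fewer than 3 of these, those with the largest change up to 3. The values of 2 genes that these rules or the marker check would name are not reported here. The 3 loci most like *Cry1* were added. *Thra*, *Sphk2*, *D930015M05Rik* and the markers were named for overlap with members or for cell type.

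The 9 alternatives were quantile normalization, median-ratio scaling, robust empirical Bayes, a replicate block, a fit of the 4 libraries compared, a pseudocount of 0.1, no filter, a mean FPKM of 5 or more, and only loci without a 0. Each of the 6 libraries was also left out in turn, which leaves a lone library that is assumed to vary like the other groups.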

Additional observations from a re-analysis of the deposited data

Results flagged for a closer look

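*Prkaa2*, which encodes a catalytic AMPK subunit, differed between the proteins in a test of the difference itself. It had 1.24 and 1.25 FPKM under HG, 1.07 and 1.42 with rFGF1WT, and 4.58 and 4.06 with rFGF1ΔHBS. The log2 difference of rFGF1ΔHBS from rFGF1WT was 1.25 (standard error 0.11, limma adjusted p = 0.0473), higher in 2 of 2 libraries. The call lies close to the threshold and was kept in 2 of 14 alternative fits, with adjusted p from 0.0474 to 0.221.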

How the results depend on the processing

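Of 426 values of the 30 member differences under other settings, 408 kept their direction and side of the threshold. Only 1 of the 30 was called as reported, so for the rest keeping a side meant staying uncalled. The 10 values that lost a call were all of *Cry1* with rFGF1ΔHBS. The replicate block left no clock gene called in any comparison: 0 members and 0 other clock genes with each protein and between them, against 0, 1 and 0 members and 3, 4 and 1 others as reported. The adjusted p of *Cry1* with rFGF1ΔHBS was then 0.121. Labels give no source of pairing, and deviations of same-numbered libraries correlated at -0.02, 0.098 and -0.05. The members called with rFGF1ΔHBS were also 0 with no filter on low FPKM, with only the 4 libraries compared and with robust empirical Bayes, and 0 to 1 over the fits without 1 library, the 1 being *Nr1d2*. Other clock genes called with rFGF1WT were 1 in the 4 libraries compared and 1 to 4 without 1 library, and 0 to 3 with rFGF1ΔHBS without 1 library, not always of genes called in the reported fit. Between the proteins the 1 call became 0 with a pseudocount of 0.1, no filter, only loci above 0, quantile normalization and the 4 libraries. The count was also 0 with a filter at 5, where *Prkaa2*, at a mean of 2.27 FPKM, was not tested. Without 1 library the count was 0 to 1, but *Prkaa2* was called in none of these fits, and the 1 was *Bhlhe41*, *Tsc22d3* or *Gsk3b*, each with 1 deviating library. *Tspan4* was likewise lost with both proteins in every fit without 1 library. Small differences reversed: *Clock* with rFGF1WT was 0.0085 after quantile normalization and -0.134 to 0.032 without 1 library, and with rFGF1ΔHBS -0.144 to 0.022. Between the proteins, without 1 library, *Per1* was -0.078 to 0.123 and *Clock* -0.061 to 0.040. Loci called with rFGF1WT, 654 as reported, were 407 with no filter, 170 in the 4 libraries and 41 with the block; with rFGF1ΔHBS 661 became 386, 189 and 39. Between the proteins 58 became 31 at a filter of 5, 19 for loci above 0 and 6 with the block. Without 1 library these counts were 134 to 195, 118 to 198 and 43 to 107. Only 2 members, *Cry1* and *Nr1d2*, could be tested at a mean FPKM of at least 5. Fits with fewer libraries have fewer residual degrees of freedom, and the cause of the other shifts was not tested.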
